A study of Mus musculus with 15 samples.

Results

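Collagen hydroxylases and lysyl oxidases are the enzymes that modify collagen with the help of molecular oxygen, and their RNA was followed in the mouse retina through oxygen-induced retinopathy (OIR), in which newborn mice are kept in high oxygen and then returned to room air. The 9 genes were chosen by function, with earlier results of these data known: *P4ha2* stood among the genes lower at P8 and higher at P13, so the ratios at these ages are given as a description. On the array, 8 of the 9 genes had a probe, with 10 probes of 29922 in all (*Loxl1* and *Loxl2* have 2 each). No probe carried the symbol *Lox* in the annotation used, and *Lox* was not analysed here. *P4ha1*, *P4ha2* and *P4hb* form the prolyl 4-hydroxylases, *Plod1*, *Plod2* and *Plod3* are the lysyl hydroxylases, and *Loxl1* and *Loxl2* are lysyl oxidase-like enzymes.

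RNA was compared on 15 two-colour arrays in 5 comparisons of 3 arrays each. The pups were wild-type C57BL/6J mice. Those of the OIR groups (O) entered 75% oxygen on day 7. The return to air was on day 12, and of these groups only P13-O was taken after it. The normal groups (N) stayed in room air throughout. P8-O was taken after 1 day in oxygen, P12-O after 5 days and P13-O 1 day after the return to air, each set against normal retina of the same age. P9-N was set against P30-N, and P13-O against P9-N, a comparison in which age and oxygen history differ together and cannot be told apart. A pool held 10 neural retinas of 5 mice from 1 litter, and different pools came from different litters. Every pool held all cell types of the retina, so fewer cells of a type and less RNA per cell cannot be told apart. The pools of P13-O and of P9-N are likely shared between the comparisons that name them.

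The deposited values are normalized log2 ratios. Values above 0 mean more RNA in the group named first, and a difference of 1 is a 2-fold change. The labels list both dye orientations and do not settle the direction. It was set from the signs in the study's tables, which 12 of 12 genes at P8, 25 of 26 at P13 and 14 of 14 in P9-N/P30-N shared, and carried to P12-O/P12-N by the same channel order. For P13-O/P9-N the direction is likely, by the same order, and *Vegfa*, the vessel growth factor that low oxygen induces, read 1.33 there beside 1.22 in P13-O/P13-N. An array held 12008 to 21189 values. Between replicates the values of all probes correlated at r = -0.20 to 0.21 at P8, 0.34 to 0.52 at P12, 0.04 to 0.46 at P13, 0.83 to 0.90 in P9-N/P30-N and 0.42 to 0.61 in P13-O/P9-N, so single ratios at P8 and P13 rest on arrays that share little over the whole array. Of the 8 rod markers listed to check the tissue, 7 were measured. Ratios give no level, and the check is limited to their being measured and to all 7 passing as lower at P9 than at P30 (median log2 ratio -1.04).

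Collagen chains are modified inside the cell before they are secreted. Prolyl 4-hydroxylase, a tetramer of catalytic alpha subunits (*P4ha1*, *P4ha2*) and the protein disulphide isomerase *P4hb*, hydroxylates proline, which lets the triple helix hold at body temperature. Lysyl hydroxylases (*Plod1* to *Plod3*) hydroxylate lysine, and outside the cell lysyl oxidases oxidise lysine and hydroxylysine so that chains cross-link. The hydroxylases use oxygen, iron and 2-oxoglutarate, and the lysyl oxidases use oxygen and copper. *P4ha1*, *P4ha2*, *Plod2*, *Lox* and *Loxl2* are known as targets of the hypoxia-inducible transcription factors in other cells, and collagen IV, a main substrate, forms the basement membrane of retinal vessels.

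Promoter sequence was at hand for 5 of the 8 genes, and 3 stretches, picked by the ratios of their genes, are shown. They are those of the 2 alpha subunits, whose ratios were the lowest of the enzymes at P8, and of *Plod3*, whose ratios lay between -0.36 and 0.40 on every array. The sequences are from RefSeq (GRCm38.p6), run 5′ to 3′ on the plus strand and end at the base before the first annotated base of the gene: chr10:59323046-59323196 for *P4ha1*, chr11:54100674-54100923 for *P4ha2* and chr5:136986769-136987018 for *Plod3*. Capitals mark ACGTG and GCGTG, the core to which hypoxia-inducible factors bind, or their complements CACGT and CACGC where the match is on the other strand.
P4ha1: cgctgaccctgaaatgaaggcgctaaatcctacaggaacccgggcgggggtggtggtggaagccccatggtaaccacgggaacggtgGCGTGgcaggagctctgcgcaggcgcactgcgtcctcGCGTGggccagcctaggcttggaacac
P4ha2: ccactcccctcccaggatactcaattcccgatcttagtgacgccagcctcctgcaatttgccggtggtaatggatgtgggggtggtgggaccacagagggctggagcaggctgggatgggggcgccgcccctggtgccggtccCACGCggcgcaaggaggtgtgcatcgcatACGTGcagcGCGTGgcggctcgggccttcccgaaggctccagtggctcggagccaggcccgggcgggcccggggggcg
Plod3: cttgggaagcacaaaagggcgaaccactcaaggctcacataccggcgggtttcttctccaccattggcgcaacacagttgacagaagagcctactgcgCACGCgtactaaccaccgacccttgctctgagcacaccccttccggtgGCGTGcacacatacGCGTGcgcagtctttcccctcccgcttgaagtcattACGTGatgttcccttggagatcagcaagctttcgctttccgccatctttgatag

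The printed stretches hold 2 matches for *P4ha1*, 3 for *P4ha2* and 4 for *Plod3*. In the full windows of 250 bases before and 50 bases after the start, searched on both strands, *P4ha1* and *P4hb* had 3 matches each, *P4ha2* and *Plod3* had 4 each and *Plod1* had 2. Of all 32851 promoter windows of this length, 43.8% held at least 1 match, 19.6% for ACGTG and 32.4% for GCGTG, and the palindrome of ACGTG with its complement can be matched on both strands. In the 250 bases before the start alone, 38.6% held at least 1 match. How many windows held 2 or more was not counted, so these shares give no scale for the numbers of matches. *Plod3* and *P4ha2* had the same number of matches. A match is a run of letters, and binding there was not measured. Any part of the motif or of oxygen in the ratios of these genes was not tested. The window of *P4ha1* is set on a start downstream of the first annotated base of the gene.

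**Figure D1:**
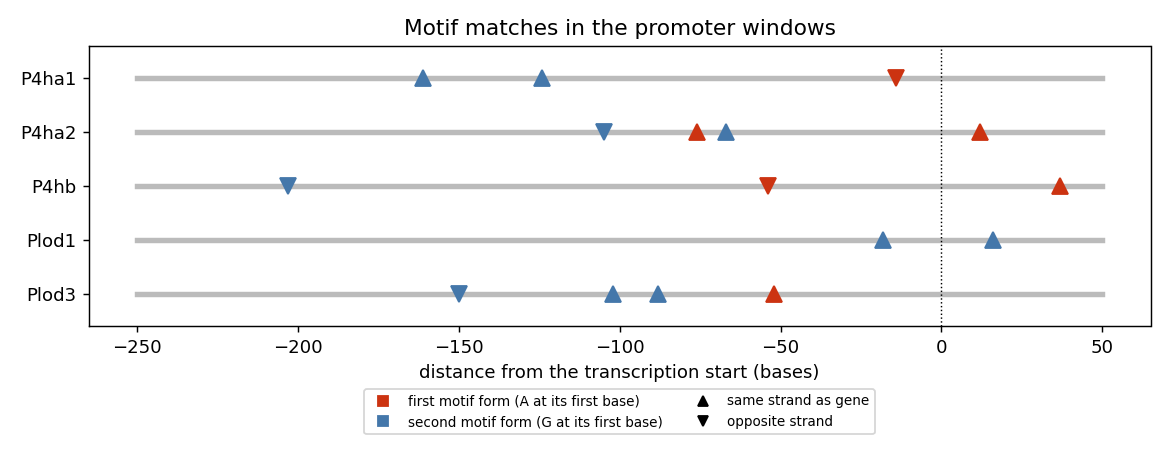
Matches to the 2 motif forms in the promoter windows of 5 enzymes, by distance from the transcription start in bases; upward triangles are on the strand of the gene and downward triangles on the other. All 5 windows hold matches, from 2 in Plod1 to 4 in P4ha2 and Plod3.

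Among the prolyl 4-hydroxylases, both alpha subunits read lower in the OIR retina after 1 day of high oxygen. For *P4ha1*, the alpha subunit found in most tissues, the log2 ratios of P8-O/P8-N were -0.95, -0.68 and -0.85 on the 3 arrays (mean -0.83, SE 0.11), a level 1.77-fold lower. All 3 arrays were below 0, and the mean was the 19th lowest of 13659 probes tested. For *P4ha2*, the second alpha subunit, the values were -0.51, -0.62 and -0.67 (mean -0.60, SE 0.09), or 1.52-fold lower. *P4hb*, the beta subunit, which also serves as a general folding enzyme, read 0.02, -0.16 and -0.23 (mean -0.12, SE 0.07), with 1 array above 0. Each SE and interval, here and below, is from the limma fit of all 15 arrays. It rests on a spread pooled over the comparisons and does not show that of the 3 arrays printed beside it.

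After 5 days in oxygen the mean of *P4ha1* lay near 0 and that of *P4ha2* was further below it. *P4ha1* read -0.09, -0.15 and -0.04 in P12-O/P12-N (mean -0.09, 95% interval -0.34 to 0.15, limma adjusted p = 0.67). *P4ha2* read -0.30, -0.26 and -0.05 (mean -0.20, interval -0.39 to -0.01, adjusted p = 0.18), and *P4hb* read -0.14, -0.24 and -0.27 (mean -0.21, interval -0.36 to -0.07, adjusted p = 0.072). All 9 values were below 0, and none of the 3 probes passed the test, which asks for an adjusted p under 0.05 and a change of at least 1.5-fold.

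One day after the return to air the alpha subunits parted. *P4ha2* read 0.89, 1.02 and 0.65 in P13-O/P13-N (mean 0.85, SE 0.09), 1.81-fold higher in the OIR retina and the 51st highest of 14436 probes. *P4ha1* read 0.07, 0.14 and 0.38 (mean 0.20, SE 0.11) and did not reach 1.5-fold. The lowest array of *P4ha2* was above the highest of *P4ha1*. *P4hb* read 0.29, 0.31 and 0.27 (mean 0.29, SE 0.07), the closest agreement among arrays of the 3 subunits. The SD of the 3 arrays was 0.018 for *P4hb*, 0.16 for *P4ha1* and 0.19 for *P4ha2*, which the pooled SE does not show.

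In normal development the alpha subunits read lower in the young retina. *P4ha2* passed in P9-N/P30-N, with ratios of -0.62, -0.77 and -0.75 (mean -0.72, SE 0.09, limma adjusted p = 2.6e-05), a level 1.64-fold lower at P9. With the arrays scaled to the same spread it was -0.53, under 1.5-fold (adjusted p = 0.00053). *P4ha1* read -0.35, -0.74 and -0.44 (mean -0.51, adjusted p = 0.0032), which is past the p threshold and under 1.5-fold. Without replicate 1 it was -0.59 and passed (adjusted p = 0.0069). *P4hb* lay on the other side of 0, at 0.34, 0.16 and 0.17 (mean 0.22, adjusted p = 0.022), also under 1.5-fold.

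Against normal retina at P9, the OIR retina at P13 had more RNA of both alpha subunits. *P4ha2* rose, with ratios of 1.32, 1.10 and 0.98 (mean 1.13, SE 0.09, limma adjusted p = 4.2e-06, 2.20-fold), the 73rd highest of 18848 probes. *P4ha1* rose too, at 1.13, 0.92 and 0.46 (mean 0.84, SE 0.11, adjusted p = 0.00038, 1.79-fold), with replicate 3 well under the others. *P4hb* read 0.11, 0.14 and 0.23 (mean 0.16, interval 0.01 to 0.30, adjusted p = 0.20).

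Ordered by ratio, the arrays of *P4ha2* in P9-N/P30-N and P8-O/P8-N overlapped, as did those of P13-O/P13-N and P13-O/P9-N, and the P12-O/P12-N arrays overlapped neither pair. For *P4ha1* the arrays of P8-O/P8-N and P9-N/P30-N overlapped, and those at P12, at P13 against age-matched retina and in P13-O/P9-N followed in that order without overlap. These ratios have different denominators, and the differences between them were not tested.

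**Figure D2:**
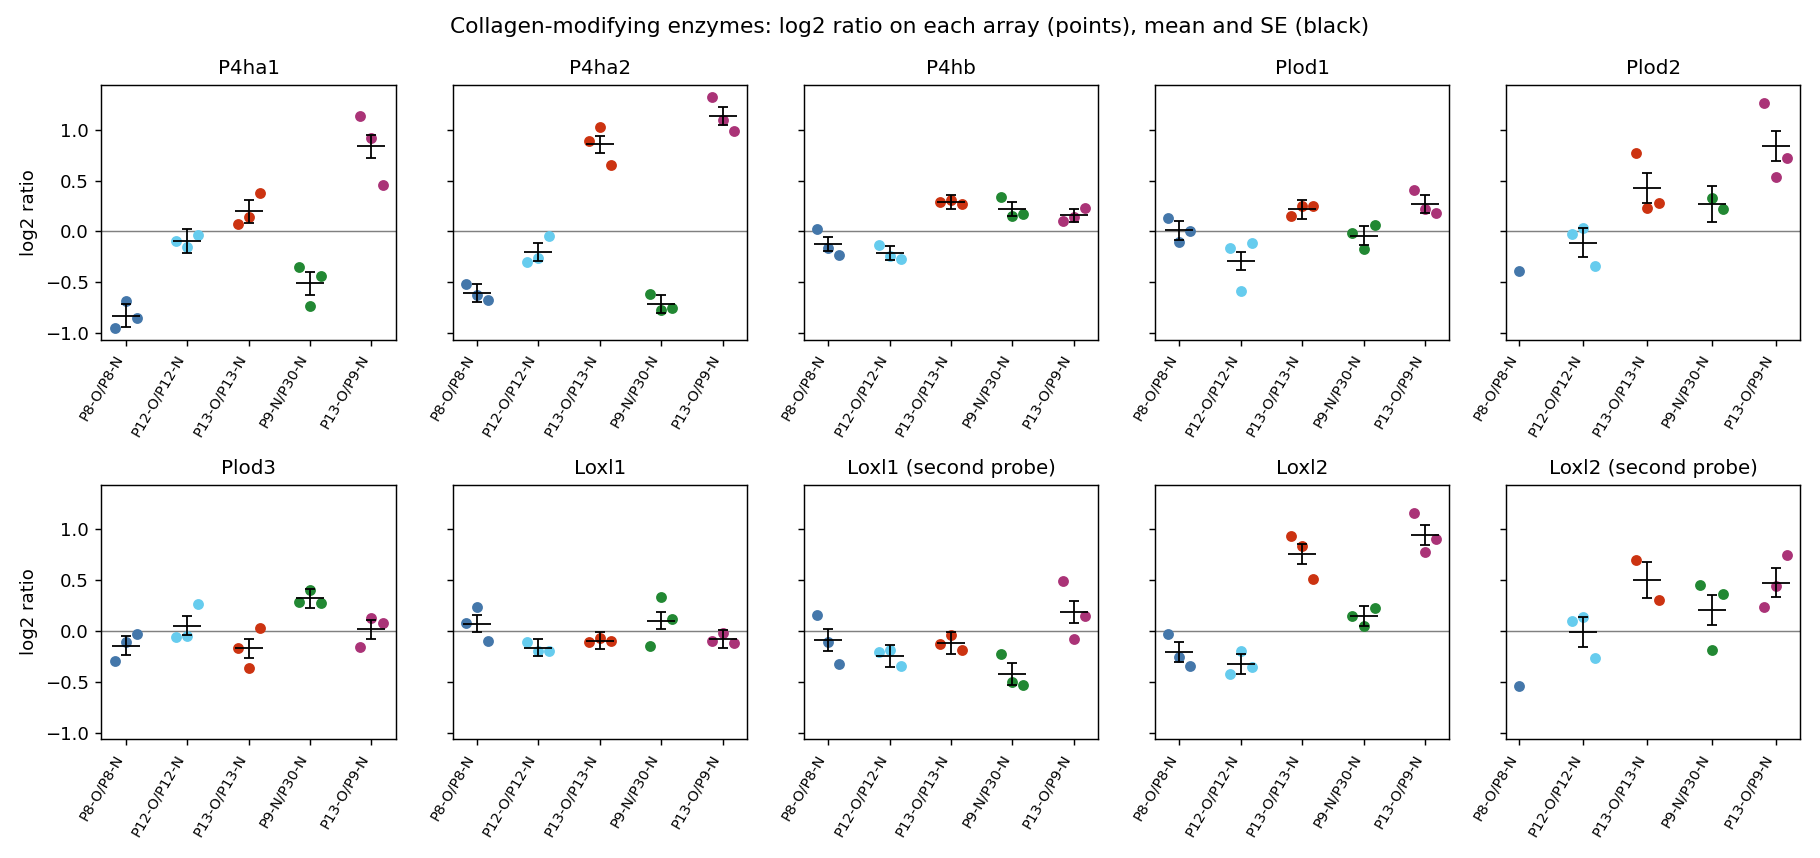
Log2 ratio of each of the 10 probes on every array (coloured points) in the 5 comparisons, with the mean and its SE (black) where at least 2 arrays had a value. The SE is from the limma fit of all 15 arrays, and the spread within a comparison is shown by the points. P4ha1 and P4ha2 lie below 0 on all arrays of P8-O/P8-N and P9-N/P30-N, and P4ha2 and the first Loxl2 probe lie at 0.51 or more on all arrays of P13-O/P13-N and P13-O/P9-N.

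Of the lysyl hydroxylases, *Plod2*, which modifies the ends of the chain where cross-links form, was the 1 that passed in any comparison. It passed in P13-O/P9-N, where it rose with values of 1.26, 0.53 and 0.73 (mean 0.84, SE 0.15, limma adjusted p = 0.0047, 1.79-fold). Replicate 1 was far above the others, and the mean was 0.63 without it (adjusted p = 0.038), still past the threshold. In P13-O/P13-N the same spread appeared, with 0.77, 0.23 and 0.28 (mean 0.43, SE 0.15), all above 0 and the mean under 1.5-fold. At P8 a single array had a value, -0.39, and the probe was not tested. At P12 it read -0.03, 0.04 and -0.33 (mean -0.11, interval -0.43 to 0.21, adjusted p = 0.71), and in P9-N/P30-N 0.33 and 0.22 on 2 arrays (mean 0.27, adjusted p = 0.28).

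*Plod1*, which hydroxylates lysine in the helical part of the chain, passed in 0 of the 5 comparisons. Its ratios were 0.13, -0.10 and 0.00 at P8 (mean 0.01), then -0.16, -0.59 and -0.12 at P12 (mean -0.29, interval -0.48 to -0.09, limma adjusted p = 0.073) and 0.16, 0.25 and 0.25 at P13 (mean 0.22). The P12 mean leaned on replicate 2. Against P9-N the P13-O retina read 0.41, 0.22 and 0.18 (mean 0.27, interval 0.07 to 0.46, adjusted p = 0.094). P9 over P30 was -0.02, -0.17 and 0.06 (mean -0.04, adjusted p = 0.78).

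*Plod3*, which also adds glucose to collagen, kept closest to 0 of the 3 lysyl hydroxylases in P13-O/P9-N, with -0.16, 0.13 and 0.09 (mean 0.02, interval -0.18 to 0.22, limma adjusted p = 0.94). At P8 it read -0.29, -0.11 and -0.03 (mean -0.14), at P12 -0.05, -0.05 and 0.27 (mean 0.05, adjusted p = 0.78) and at P13 -0.17, -0.36 and 0.03 (mean -0.17). In P9-N/P30-N it read 0.28, 0.40 and 0.28 (mean 0.32, adjusted p = 0.015), past the p threshold and under 1.5-fold. Its sign there was that of *P4hb* and opposite to that of *P4ha1* and *P4ha2*.

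Of the lysyl oxidases, *Loxl2*, which cross-links collagen IV, read higher at P13, while *Loxl1*, known for its part in elastic fibres, read near 0. The first *Loxl2* probe had 0.93, 0.84 and 0.51 in P13-O/P13-N (mean 0.76, SE 0.10), 1.69-fold higher and the 78th highest of 14436 probes. In P13-O/P9-N it rose, at 1.16, 0.78 and 0.90 (mean 0.95, SE 0.10, limma adjusted p = 4.1e-05, 1.93-fold). In high oxygen it was on the low side on all 6 arrays, with -0.02, -0.26 and -0.34 at P8 (mean -0.21) and -0.42, -0.19 and -0.35 at P12 (mean -0.32, interval -0.53 to -0.11, adjusted p = 0.063). P9 over P30 was 0.15, 0.05 and 0.23 (mean 0.15, adjusted p = 0.29), so that, unlike for *P4ha2*, the arrays of P9-N/P30-N lay above 0.

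The second *Loxl2* probe had fewer values. It read 0.70 and 0.31 on 2 arrays in P13-O/P13-N (mean 0.50) and 0.24, 0.44 and 0.75 in P13-O/P9-N (mean 0.48, interval 0.16 to 0.80, limma adjusted p = 0.074), which did not pass. With array weights it was 0.59 and passed (adjusted p = 0.024). The sign at P13 was that of the first probe and the size was smaller. At P12 it read 0.10, 0.14 and -0.26 (mean -0.01, adjusted p = 0.98), at P8 1 array had -0.54, and P9 over P30 was 0.45, -0.18 and 0.36 (mean 0.21, adjusted p = 0.31).

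Both *Loxl1* probes read just under 0 in P13-O/P13-N, the first at -0.11, -0.07 and -0.10 (mean -0.09) and the second at -0.12, -0.04 and -0.18 (mean -0.11). At P8 their means were 0.07 and -0.09 with values of either sign, and at P12 they were -0.16 and -0.24 (limma adjusted p = 0.28 and 0.19) with all 6 values below 0. The probes disagreed in P9-N/P30-N. The first had -0.14, 0.33 and 0.12 there (mean 0.10, adjusted p = 0.39) and the second -0.22, -0.50 and -0.53 (mean -0.42, adjusted p = 0.0083, under 1.5-fold). In P13-O/P9-N the means were -0.08 (adjusted p = 0.68) and 0.19 (adjusted p = 0.36).

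Over the 10 probes, 2 of the 8 tested passed at P8, both lower (*P4ha1*, *P4ha2*), where 0.403% of all probes tested passed, and 2 of 10 passed at P13, both higher (*P4ha2*, *Loxl2*), beside 0.734%. The genes were chosen with these ratios known, and nothing is read from these counts. *P4ha2* did not pass at P8 without replicate 2 (-0.59) or replicate 3 (-0.57), a separate limma fit of each age passed 0 of the probes at P8 and 0 at P13, and SAM passed 0 and 1. Here and below, SAM was set to a false discovery rate of 1% and took only probes with a value on all 3 arrays. Its counts are therefore at a stricter threshold than those of limma. At P12, 0 of 10 passed in limma and in the one-class SAM test, and 1.27% of all probes passed in limma. An unadjusted limma p under 0.05 was found for 5 of 10 probes at P12, 5 in P9-N/P30-N and 7 in P13-O/P9-N. The share of all probes at that threshold was not counted, here or for the gene lists below, and nothing is read from such counts. In P9-N/P30-N 1 of 10 passed (*P4ha2*, lower), beside 12.0% of all probes. In P13-O/P9-N 4 of 10 passed, all higher (*P4ha1*, *P4ha2*, *Plod2*, *Loxl2*), beside 2.69% of all probes. The median over the probes tested was -0.13 at P8, -0.18 at P12, 0.25 at P13, 0.12 in P9-N/P30-N and 0.37 in P13-O/P9-N, and that of all probes tested was between -0.02 and 0.01 in each comparison. P13-O/P9-N likely shares pools with the OIR comparison at P13 and with P9-N/P30-N, so it is not independent of either.

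**Figure D3:**
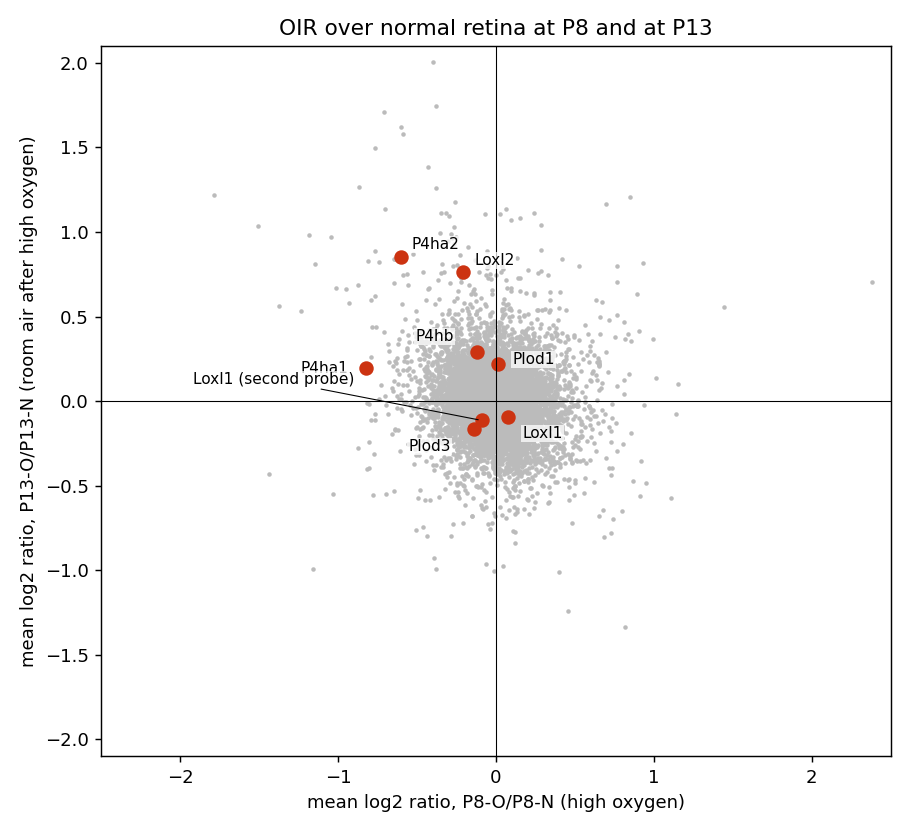
Mean log2 ratio of OIR over normal retina at P8 (horizontal) against that at P13 (vertical) for the probes tested at both ages, with the 8 enzyme probes tested at both in red and all others in grey. P4ha2 lies at -0.60 and 0.85 and P4ha1 at -0.83 and 0.20, while Plod1, Plod3 and both Loxl1 probes lie within the bulk of probes.

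The other genes of collagen maturation include chaperones, prolyl 3-hydroxylases and propeptide-cutting proteases. Of 24 genes listed, 13 were tested at P8, 14 at P12 and 13 at P13 in OIR over normal retina, and 0 passed at each age in limma and in SAM, with medians over genes of -0.02, -0.08 and 0.11. A probe with an unadjusted p under 0.05 was found for 2, 2 and 1 of them. One was *Serpinh1*, the collagen chaperone HSP47, at P12, with -0.44, -0.56 and -0.66 (mean -0.55, limma adjusted p = 0.011), past the p threshold and under 1.5-fold. The highest mean at P13 was that of *Tgm2*, at 1.58, 1.47 and 0.30 (mean 1.12, SE 0.34, limma adjusted p = 0.25), which did not pass. That mean was above those of all enzyme probes at P13, of which *P4ha2* was highest at 0.85. In P13-O/P9-N *Tgm2* read 1.66, 0.02 and 0.34 (mean 0.67, limma adjusted p = 0.33). The medians over the hydroxylase and lysyl oxidase genes were -0.14, -0.18 and 0.25. In P9-N/P30-N 2 of 12 passed as higher at P9 and 1 as lower. *Serpinh1* read 1.46, 1.46 and 1.45 on the 3 arrays (mean 1.46, SE 0.10, limma adjusted p = 2.1e-07), and *Ppib*, the prolyl isomerase cyclophilin B, read 1.00, 0.92 and 0.95 (mean 0.96, SE 0.06, adjusted p = 6.8e-08). These are higher in the young retina, where *P4ha1* and *P4ha2* read lower. *Adamts3*, a protease that trims procollagen, read -0.71 in P9-N/P30-N (limma adjusted p = 9.7e-05). It was the 1 of 14 that passed in P13-O/P9-N, as higher (0.65, limma adjusted p = 0.0011). With the arrays scaled to the same spread it read -0.53 in P9-N/P30-N, and without replicate 2 it read 0.57 in P13-O/P9-N, both under 1.5-fold.

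Among collagen chains and elastin, the substrates, the medians were -0.03 at P8, -0.20 at P12 and 0.03 at P13. At P12, 2 of 22 genes passed, both lower and both chains of basement membrane collagen IV. *Col4a1* fell with ratios of -1.24, -1.45 and -1.14 (mean -1.28, SE 0.11, limma adjusted p = 0.00012) and *Col4a2* with -0.90, -0.91 and -0.83 (mean -0.88, SE 0.09, adjusted p = 0.00061). At P8, 2 of 15 passed as lower (*Col2a1* and *Col4a1*) and at P13 1 of 19 as higher (*Col2a1*). SAM passed 0 and 1 at these ages, and a separate fit of each age passed 0 probes of the whole array. In P13-O/P9-N 0 of 23 passed in limma and in SAM (median 0.02, 5 genes with an unadjusted p under 0.05). In P9-N/P30-N 4 of 16 passed, all higher at P9. *Col2a1*, the fibrillar chain of vitreous and cartilage, read 1.57 and 0.99 on its 2 probes (adjusted p = 5.1e-07 and 5.4e-05). *Col9a1*, which binds to collagen II fibrils, read 0.83 and 0.62 (adjusted p = 0.0025 and 0.0094), and its second probe lost the call without replicate 2 (adjusted p = 0.063) or 3 (adjusted p = 0.074) and with arrays scaled to the same spread (adjusted p = 0.072). *Col4a1* was at 0.66 (adjusted p = 0.00044) and under 1.5-fold without replicate 1 (0.55) or with scaled arrays (0.50). *Col8a1* had 2 arrays, at 0.36 and 2.37 (adjusted p = 0.021), and a separate fit of this comparison gave an adjusted p of 0.13.

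Hypoxia-inducible genes, a list partly picked by the study from the same arrays and therefore not independent evidence of its direction, were set beside the enzymes. At P8 6 of 13 passed as lower (median -0.71), at P12 1 of 15 (median -0.07), and at P13 8 of 15 as higher (median 0.66). SAM passed 3, 0 and 5 of these genes, and a separate fit of each age passed 0 probes of the whole array at P8 and P13. In P13-O/P9-N 10 of 16 passed as higher (median 0.73), and in P9-N/P30-N 2 of 13 passed as higher at P9 and 3 as lower (median 0.10). Differences between these lists and the enzymes were not tested.

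**Figure D4:**
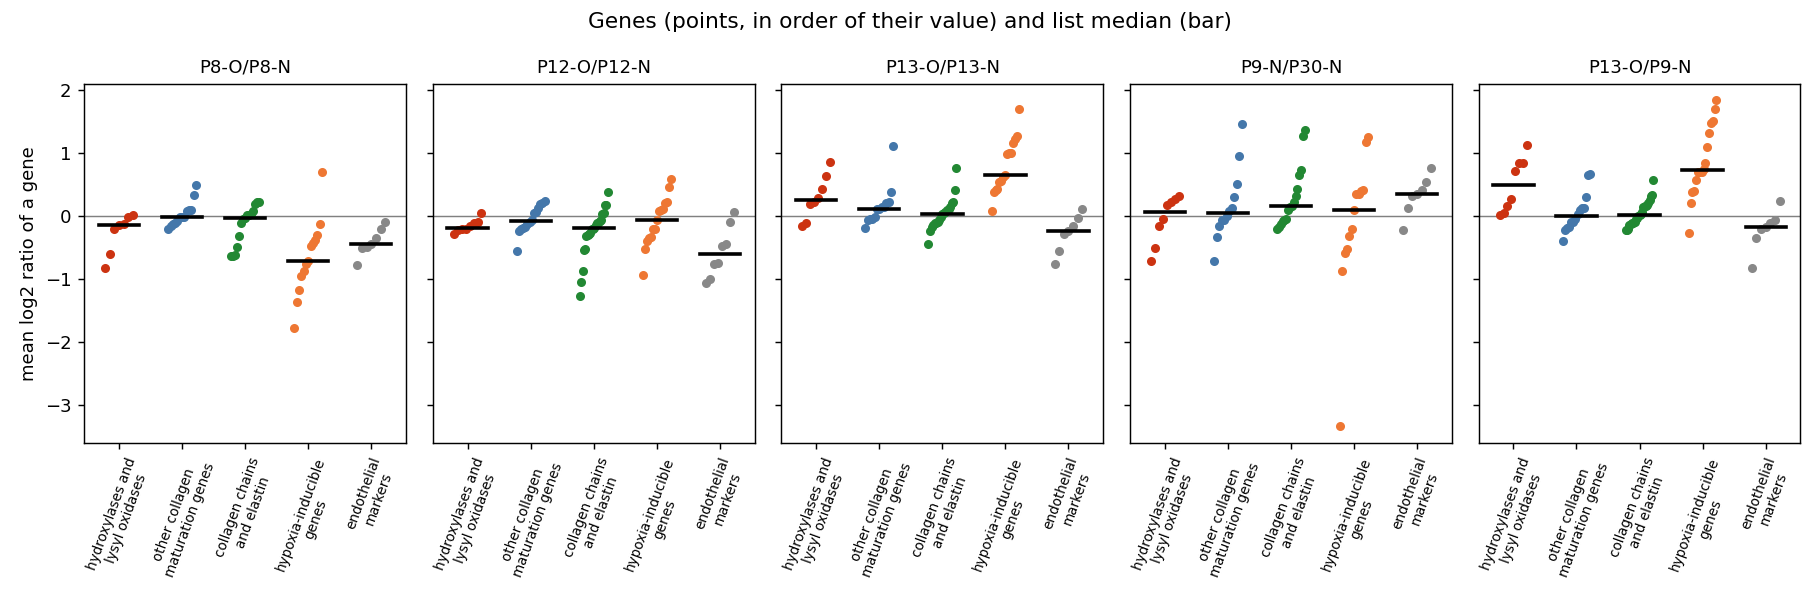
Mean log2 ratio of each gene tested (points, probes of a gene averaged, in order of value) and the median of its list (bar) in the 5 comparisons, for the hydroxylases and lysyl oxidases and 4 other lists. The bars of the enzymes lie at -0.14, -0.18, 0.25, 0.07 and 0.49, those of the other maturation genes between -0.08 and 0.11, and those of the hypoxia-inducible genes at -0.71, -0.07, 0.66, 0.10 and 0.73.

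Markers of cell types moved in the same comparisons. Of the endothelial markers, 1 of 7 passed at P8, 5 of 8 at P12 and 1 of 7 at P13, all lower, and the list medians by array ran from -0.48 to -0.44, from -0.70 to -0.59 and from -0.35 to -0.17. Of the enzyme probes tested, 6 of 8 were below 0 at P8, 9 of 10 at P12 and 3 of 10 at P13. The share of all probes below 0 was not counted, and the medians of all probes tested were -0.001, -0.003 and -0.01. Nothing is read from these counts. Of the pericyte and smooth muscle markers 0 of 4 passed at P8 (0 in SAM, 1 at an unadjusted p under 0.05), 0 of 5 at P12 (1 in SAM, 4 at an unadjusted p under 0.05, medians by array -0.39 to -0.34) and 1 of 5 at P13, *Acta2*, as higher. At P12, 2 of 7 rod markers were lower and 1 of 7 lens markers was higher. Of the 4 Mueller glia markers, 0 passed at P8 and at P12 in limma and in SAM (2 at an unadjusted p under 0.05 at each age), and at P13 *Vim*, an intermediate filament, was higher (1.11) and *Glul*, glutamine synthetase, lower (-0.68). In P13-O/P9-N 4 of 7 rod markers were higher (medians by array 0.48 to 0.75), as were *Vim* (0.93) and *Glul* (1.34), and 1 of 7 endothelial markers was lower. Lens markers stood at 2.61 on replicate 1 of P13-O/P9-N, beside -0.13 and -0.24 on the others, and *P4ha1*, *P4ha2*, *Plod2* and the first *Loxl2* probe were highest on that array. Without it all 4 passed, at 0.69, 1.04, 0.63 and 0.84. In P9-N/P30-N 7 of 7 rod and 3 of 6 lens markers were lower and 3 of 3 pigment epithelium and 2 of 4 microglia markers were higher, as was 1 of 7 endothelial markers, and of the Mueller glia markers 2 of 4 were higher and 1 lower (*Glul*, -2.31). Of the 6 fibroblast markers 2 or 3 were tested in a comparison, and 1 passed, in P9-N/P30-N, as higher. At P8 their medians by array were -0.52, -0.10 and -1.89, over 2, 2 and 4 genes. These do not cover the same genes, so the arrays cannot be compared by them. The part of these cell types in the ratios of the enzymes was not tested.

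The probes whose ratios ran most like those of each enzyme were taken over the 15 arrays, among 9839 probes with a value on all of them. Some arrays likely share pools, and the correlations are a description. The 15 arrays include those of P8 and P13, whose ratios were known when the genes were chosen. Likeness of *P4ha2* to probes with the same pattern is therefore not independent of that choice. *P4ha2* ran closest to a probe of *Gpi1*, a glycolytic isomerase (r = 0.99), and to 2 probes of *Egln1*, which marks hypoxia-inducible factors for decay (both r = 0.98). *P4ha1* ran closest to *Ak3l1*, an adenylate kinase (r = 0.94), a second *Gpi1* probe (r = 0.91) and *Tpi1*, another glycolytic isomerase (r = 0.91). The first *Loxl2* probe ran closest to *Hsd17b2* (r = 0.97), *Bmpr1b* (r = 0.96) and *Pfkl* (r = 0.95), and *P4hb* to *Sox9*, a transcription factor of glia (r = 0.95), *Ctbp2* and *Dusp16* (both r = 0.90). For *Plod1* these were *Tln1* (r = 0.90), *Myh7b* (r = 0.88) and *Rrbp1* (r = 0.87), and for *Plod3* *Rpp21* (r = 0.90), *Dync1li1* (r = 0.89) and *Flywch2* (r = 0.89). The *Loxl1* probes shared none of their 3. The first ran closest to *Ankrd13b* (r = 0.87), *Aldh3b2* (r = 0.86) and *C1galt1* (r = 0.81) and the second to *2810002I04Rik* (r = 0.93), *Nrgn* (r = 0.93) and *Pde4dip* (r = 0.92). *Plod2* and the second *Loxl2* probe lacked values on some arrays and were not ranked.

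By the RefSeq annotation (GRCm38.p6), *P4ha1* lies at chr10:59323197-59373304, *P4ha2* at chr11:54100924-54131668, *P4hb* at chr11:120560298-120573253, *Plod1* at chr4:147909753-147936776, *Plod2* at chr9:92539636-92608428, *Plod3* at chr5:136987019-136996646, *Loxl1* at chr9:58287723-58313212 and *Loxl2* at chr14:69608692-69695834. No 2 of the 4 genes that passed in P13-O/P9-N share a chromosome.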

How the data were processed

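RNA of pooled mouse retinas was measured on 15 two-colour whole-genome arrays. The authors deposited normalized log2 ratios, with replicates kept separate. The normalization, the background correction and the rule for blank values are not given in the sources used here, nor whether a value joins both dye orientations, and either could shift small ratios. P9-N/P30-N arrays were negated to give P9 over P30. A probe was tested where at least 2 of 3 arrays had a value. All 15 arrays entered a single limma fit (3.58.1, R 4.3.3) with 5 means, 1 for each comparison, and Benjamini-Hochberg adjustment ran over the whole set of tested probes. The SEs and intervals given are those of this fit, with the moderated spread of a probe pooled over the comparisons. Passing required an adjusted p under 0.05 together with a change of at least 1.5-fold. For the enzymes no p is given at P8 and P13.

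The genes and lists were chosen with earlier results of these data known. Named besides the enzymes were up to 4 passing genes per collagen list and comparison outside P8 and P13, the 3 most similar probes per enzyme, and *Vegfa*. *Col2a1* and *Col4a1* at P8 and P13, *Serpinh1* at P12, *Tgm2*, *Acta2*, *Vim* and *Glul* were named after their values were seen. Of 29922 probes, 21020 had 1 gene symbol. Of 16675 symbols, 13905 were current in RefSeq (GRCm38.p6) and 2728 matched through a synonym. Alternatives were a separate fit, SAM, other thresholds, centring, scaling, array weights, other probe sets, probes of a gene averaged, a replicate block, and leaving out each array. The method was tested on simulated data, with changes planted in P9-N/P30-N only. A probe had the same spread in all comparisons of that simulation, so it does not bear on the calls at P8 and P13. Plots used matplotlib 3.10.9 (Python 3.11.15). Arrays carry no depth, and their number limits the precision.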

Additional observations from a re-analysis of the deposited data

Results flagged for a closer look

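Between P8 and P13, 3 enzyme probes were below 0 on every P8 array and above 0 on every P13 array of OIR over normal retina, and these were noted for that reason alone. The mean log2 ratio at P13 exceeded that at P8 by 1.02 for *P4ha1*, 1.46 for *P4ha2* and 0.97 for the first *Loxl2* probe. Between P12 and P13 the same held for 5 probes. The mean at P13 exceeded that at P12 by 0.29 for *P4ha1*, 1.06 for *P4ha2*, 0.50 for *P4hb*, 0.51 for *Plod1* and 1.08 for the first *Loxl2* probe. The genes were chosen with the P8 and P13 ratios known, and these differences were not tested. How many of all probes met the same rules was not counted, so nothing is read from the 3 and the 5.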

How the results depend on the processing

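Of the enzyme probes, 2 passed at P8, 0 at P12, 2 at P13, 1 in P9-N/P30-N and 4 in P13-O/P9-N. A separate fit of each comparison gave 0 at P8 and 0 at P13, and SAM gave 0 and 1, each with 3 arrays behind a spread in place of 15. SAM also differed in its false discovery rate of 1% and in taking only probes with a value on all 3 arrays. Leaving out 1 array gave 1 to 2 at P8, where *P4ha2* did not pass without replicate 2 or 3, and 1 to 2 in P9-N/P30-N. P9-N/P30-N had 5 without a fold cutoff and 0 with arrays scaled to the same median absolute deviation. At P12 every alternative gave 0. The replicate numbers were not taken to pair the arrays (deviations correlated at -0.26 to 0.25 over 30 same-numbered pairs, 5 above 0.1), and with a replicate block the counts were 2, 0, 2, 1 and 4. Reversed signs were all of means that did not pass. Leaving out 1 array at P12, *Plod2* ran from -0.18 to 0.0045, *Plod3* from -0.050 to 0.11 and the second *Loxl2* probe from -0.081 to 0.12, with the turn of sign without replicate 3, and the last was 0.0026 with scaled arrays. In P9-N/P30-N, *Plod1* ran from -0.092 to 0.024 and the first *Loxl1* probe from -0.014 to 0.23 (turned without replicate 2), and in P13-O/P9-N *Plod3* ran from -0.036 to 0.11 (turned without replicate 2 or 3). At P8 *Plod1* was -0.049 without replicate 1 and -0.066 with array weights, the first *Loxl1* probe -0.0087 without replicate 2 and the second 0.026 without replicate 3. Over all probes, 55 passed at P8, 210 at P12, 106 at P13, 1663 in P9-N/P30-N and 507 in P13-O/P9-N. The separate fit passed 0, 47 and 0 at the 3 ages, SAM 12, 65 and 34, and an adjusted p under 0.01 passed 23, 87 and 62. Without a fold cutoff there were 87, 1169, 218, 4665 and 1603. Scaling passed 183 at P13 and 825 in P9-N/P30-N, and array weights 224 at P8 and 304 at P13. Leaving out 1 array gave 22 to 50 at P8, 71 to 296 at P12 and 39 to 190 at P13. The cause of these shifts was not tested. Brightness is not part of the deposited ratios, so how far a probe stood above background is unknown.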
